A study of Abies pinsapo with 12 samples.

Results

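Transcript ap_72669, named red chlorophyll catabolite reductase by the study, was followed through the needles of Spanish fir (Abies pinsapo), a relict conifer of southern Spain. It is 1 of the 76481 assembled transcripts in the count table and 1 of the 23352 transcripts kept after the filter of at least 2 CPM (counts relative to the size of the library) in at least 2 libraries. It was picked for its levels, which split the 12 libraries into a high and a low state, so the levels below are a description and were not tested between the states. The tested comparison of the study was between 6 bluish and 6 green trees, wild adults of Sierra de las Nieves chosen by needle colour, with mature needles harvested in spring and 1 library made per tree. The trees received no treatment, the study gives the same age for both colours, and genotypes are not given in the sources used here.

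Chlorophyll is dismantled along a fixed route when leaves senesce or recycle their light-harvesting complexes. Magnesium is removed from the pigment by a Staygreen protein, the phytol tail is cut off, pheophorbide a oxygenase opens the ring to give the red chlorophyll catabolite, and red chlorophyll catabolite reductase turns this into a colourless fluorescent product. In Arabidopsis the loss of this enzyme lets a phototoxic intermediate build up and causes cell death in leaves. The count table holds transcript names without sequence or genome position, so none is shown for ap_72669 or for its companions. All gene names used here come from the text or the supplementary tables of the study.

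In bluish trees 1 to 6, ap_72669 had 550, 387, 354, 19, 504 and 420 counts. In green trees 1 to 6 it had 29, 37, 21, 516, 16 and 6 counts. The transcript was thus high in all bluish trees except tree 4 and low in all green trees except tree 4. Each library held between 64978939 and 91973481 counted reads in all, so depth varied far less than these counts did.

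On the CPM scale, with library sizes corrected by TMM factors (trimmed mean of M values, 0.958 to 1.04 here), the levels in bluish trees 1 to 6 were 8.20, 5.14, 5.05, 0.285, 6.24 and 5.93 CPM. In green trees 1 to 6 they were 0.368, 0.420, 0.285, 6.23, 0.186 and 0.0904 CPM. No library lay between 0.420 and 5.05 CPM. Split at this gap, the widest on the log2(CPM + 0.1) scale, 6 libraries were in the high state and 6 in the low state. Green tree 4 sat inside the range of the 5 high bluish trees, and bluish tree 4 sat inside the range of the 5 low green trees.

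**Figure D1:**
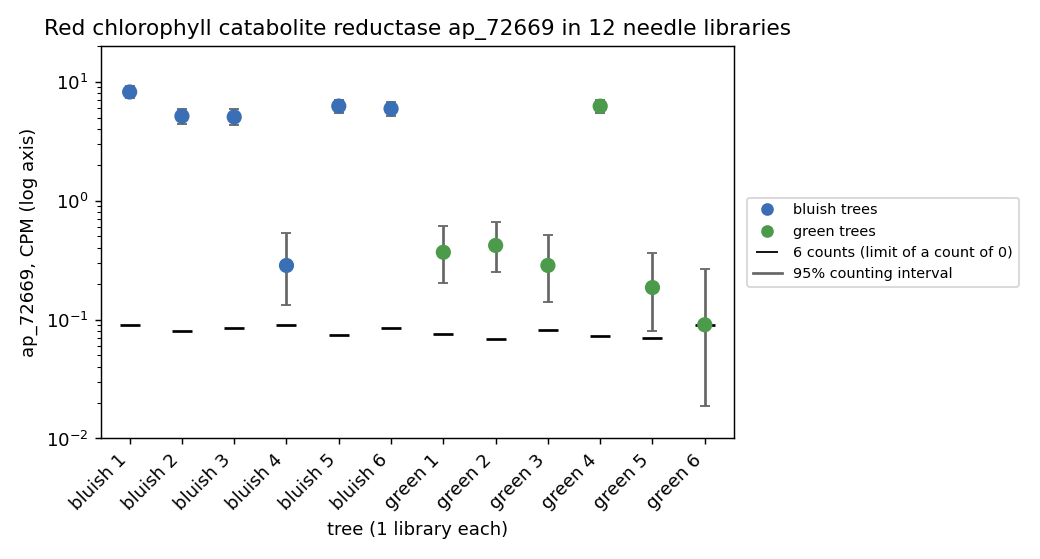
Level of ap_72669 (CPM, log axis) in each tree, bluish trees in blue and green trees in green, with 95% counting intervals as bars and a black dash where 6 counts would lie. The 6 high libraries lie between 5.05 and 8.20 CPM and the 6 low libraries between 0.0904 and 0.420 CPM.

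The high state averaged 6.13 ± 1.14 CPM and the low state 0.272 ± 0.120 CPM (SD, n = 6 libraries each), a ratio of the means of 22.5. The member just above the gap was bluish tree 3 at 5.05 CPM (95% counting interval 4.34 to 5.86). The member just below it was green tree 2 at 0.420 CPM (0.251 to 0.660). These are exact Poisson intervals on counts divided by 2, which allows for both mates of a pair being counted, and they cover counting error only. The lowest high level was 12.03 times the highest low level.

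The low state was not an absence of counts, which were 6 to 37 per library, and the source of these few reads was not tested. With 3 read pairs, or 6 counts, taken as the limit that a count of 0 allows, 5 of the 6 low libraries were above this limit. Green tree 6, with 6 counts, was at the limit of 0.0904 CPM for its library. In bulk needle RNA, fewer cells that make a transcript and less of it per cell cannot be told apart.

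Within the high state ap_72669 was an ordinary transcript of low level. It stood above 31.0% to 41.9% of kept transcripts in the high libraries, and above 0.420% to 1.16% in the low libraries. Its SD over the high libraries was 0.25 on the log2(CPM + 0.1) scale, against a median of 0.28 over the same libraries for the 2600 other kept transcripts within 1.25-fold of its level. Over all 12 libraries its SD was 2.19 on this scale, against a median of 0.26 for all kept transcripts, and 159 kept transcripts (0.681%) had a larger one. A gap at least as wide as that of ap_72669 was found in 101 other kept transcripts (0.433%). In 27 of these the gap set apart 1 library, and in 33 it set apart 2 libraries.

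The depth of the libraries overlapped between the states. Totals lay between 68142274 and 79989882 reads in the high state and between 64978939 and 91973481 reads in the low state. The conifer needle markers, namely ap_10220, ap_13908, ap_2598 and ap_81338, were found in every library, with summed levels of 51.0 to 170 CPM in the high state and 50.2 to 236 CPM in the low state. Green tree 4 differed from the other high libraries in transcripts whose best database hit is another organism. The 3 transcripts with a green alga as best hit, ap_72505, ap_86407 and ap_16219, summed to 57.8 CPM in green tree 4, against 1.94 to 3.29 CPM in the 5 high bluish trees. They were at 1.86 CPM in bluish tree 4, against 2.93 to 16.8 CPM in the other green trees. The 58 transcripts with a Carpinus fangiana hit in the part of the supplementary table used here summed to 542 CPM in green tree 4, against 45.6 to 138 CPM in these 5 bluish trees, with 57.6 to 263 CPM in the other green trees. The level of ap_72669 was 6.11 ± 1.27 CPM (SD, n = 5) in the 5 high bluish trees. In green tree 4, where both the green alga and the Carpinus fangiana sums were highest, it was 6.23 CPM. The Carpinus fangiana sums of the 5 high bluish trees overlapped those of the low libraries, which were 57.6 to 263 CPM. Both sets were named from the study's results on the colour comparison of these same trees. A transcript extreme in green tree 4 alone could enter them, so their sums in this tree are a description. The part of these transcripts in the level of ap_72669 in green tree 4 was not tested.

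Between colours, ap_72669 averaged 5.14 ± 2.64 CPM in the bluish trees, against 1.26 ± 2.44 CPM in the green trees (SD, n = 6 each). In the fit of all kept transcripts its logFC was 2.02 (SE 0.982), with higher levels in bluish trees, an unadjusted p of 0.0602 and FDR = 0.790 (quasi-likelihood F-test of edgeR, Benjamini-Hochberg). The study called this transcript as higher in bluish trees, 1 of 457 that it called with edgeR at FDR under 0.05 and |logFC| over 1. It reported that RT-qPCR with 6 biological replicates also found this. Transcript ap_72669 was named for its colour difference in these trees, so the fitted values here are a description and not independent evidence. Differential expression (DE) was called at FDR under 0.05 and |logFC| over 1, which 1 of the 23352 transcripts passed (0.00428%), and ap_72669 did not. The SD of the green trees was larger than their mean, since tree 4 alone carried most of their sum.

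The size of the colour difference moved most with green tree 4. Without green tree 4 the logFC was 4.23 (SE 0.694), with an unadjusted p of 5.37e-05 and FDR = 0.412 in the same edgeR fit. Without bluish tree 4 it was 2.27 (SE 0.927), with FDR = 0.869. With any of the other 10 trees left out, the logFC stayed between 1.78 and 2.02. Of all alternatives tried, only the exact test of edgeR under 1 dispersion common to all transcripts called ap_72669, with FDR = 1.33e-09, and FDR over the other alternatives ranged from 0.412 to 1.00.

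**Figure D2:**
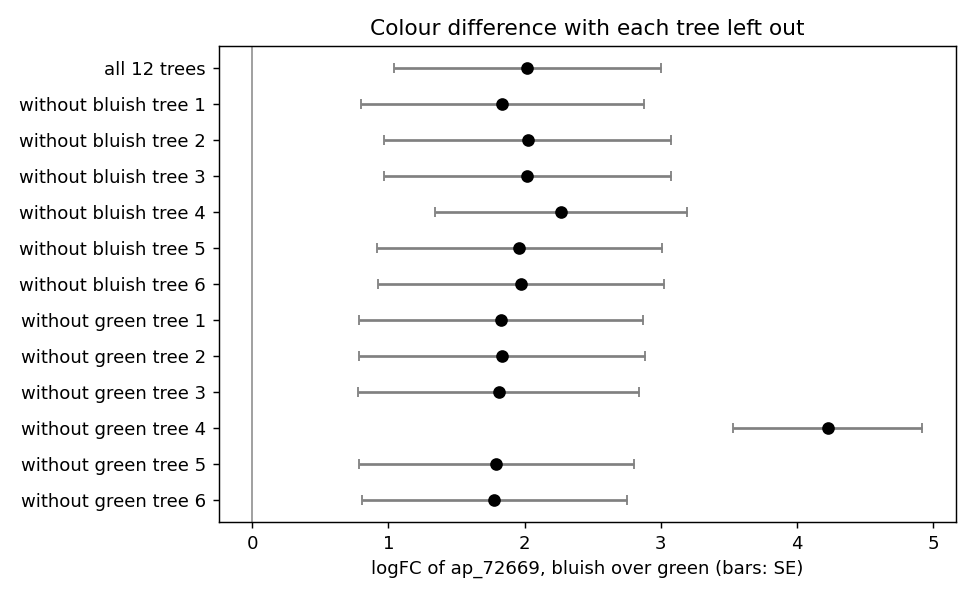
logFC of ap_72669, bluish over green, with all 12 trees and with each tree left out in turn (points, with SE as bars, edgeR quasi-likelihood fit). The point without green tree 4 lies at 4.23, and the other points lie between 1.78 and 2.27.

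The transcript called between the colours, ap_23494, had 172 counts in bluish tree 4 and 0 counts in green tree 4. Its levels in the bluish trees were between 2.58 and 3.76 CPM, and it had no count in any green tree. Since ap_23494 was picked for separating the colours, its levels are no independent check of the trees with number 4.

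No other kept transcript followed the states of ap_72669. To follow them, the lowest level in the high libraries had to be at least 2 times the highest level in the low libraries, after 0.1 CPM was added to each. Of the 23351 other kept transcripts, 0 met this rule (0%), and 0 met it in the opposite direction (0%). The counts stayed at 0 with 0.5 or 1 CPM added, with other scaling factors and with no filter on low counts. No test was made, since the states were read from the data.

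Transcripts that separated the states by any ratio were few, and their gaps were narrow. There were 10 that followed the states (0.0428%), with ratios between 1.00 and 1.34, and 13 that went the opposite way (0.0557%), with ratios between 1.00 and 1.23. The transcripts of these groups named below were chosen after seeing their values. Of the followers, the widest ratio belonged to ap_13350, which has no name in the tables used here. In bluish trees 1 to 6 it was at 2.70, 2.40, 2.113, 0.375, 2.28 and 1.99 CPM, and in green trees 1 to 6 at 0.152, 0.874, 0.326, 1.93, 1.09 and 1.42 CPM. Its high libraries lay within 1.93 to 2.70 CPM, while its low libraries were spread from 0.152 to 1.42 CPM. In the same fit its logFC between colours was 1.03 (SE 0.567), with FDR = 0.808 by the quasi-likelihood test of edgeR.

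The widest ratio of the opposite group belonged to ap_91623, named a subtilisin-like protease, of a family of serine proteases, by a best hit from the flowering plant Anthurium amnicola. Bluish trees 1 to 6 had 14.3, 18.7, 16.5, 49.7, 22.4 and 12.5 CPM of it, and green trees 1 to 6 had 30.05, 32.5, 36.8, 24.4, 52.1 and 42.8 CPM. Bluish tree 4 lay among the highest of the low libraries, and green tree 4 at 24.4 CPM was the highest of the high libraries. The 31 transcripts with a hit in Anthurium amnicola summed to 83.9 to 179.5 CPM in the high libraries and 91.0 to 237 CPM in the low libraries, and their part in these levels was not tested. The next, ap_19337, which has no name, was at 1.19 to 7.63 CPM in the high libraries and 8.33 to 14.98 CPM in the low libraries. Its levels in the high libraries were themselves split, with bluish trees 1 and 6 at 7.63 and 6.104 CPM and the other 4 between 1.19 and 1.61 CPM.

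If 1 library was allowed to lie on the other side, 5 other kept transcripts shared the states by at least 2-fold (0.0214%), and 0 were opposite. This rule was chosen after the data were seen. The 5 transcripts formed a group of 3 that was also high in green tree 1 and a group of 2 that was also high in green tree 2. The library on the other side was thus green tree 1 or 2 for all 5. The rule then required them to be low in bluish tree 4 and high in green tree 4, so this is no separate observation. None of the 5 has a name in the tables used here.

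Of the group high in green tree 1, ap_9948 was at 7.86, 5.64, 4.18, 0.210, 3.95 and 10.7 CPM in bluish trees 1 to 6. In green trees 1 to 6 it was at 9.44, 0, 0, 3.55, 0 and 0.0301 CPM. The others, ap_76900 and ap_70685, were also highest in bluish tree 6, at 10.4 and 9.81 CPM. In green tree 1 they were at 7.73 and 8.56 CPM. In the 5 low libraries of this group, no level of these 3 transcripts was above 0.345 CPM, and the 7 high libraries were at 3.06 CPM or more. Bluish tree 6 was the highest tree of all 3, whereas ap_72669 was highest in bluish tree 1.

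Of the group high in green tree 2, ap_79805 was at 3.58, 3.45, 6.52, 0.240, 4.72 and 6.91 CPM in bluish trees 1 to 6. In green trees 1 to 6 it was at 0.355, 3.25, 0.231, 8.21, 0.256 and 0.377 CPM. It was also one of the 10 transcripts that followed the states by any ratio, since its level in green tree 2 lay just below its lowest high library. For ap_33945, levels of 2.51 to 5.08 CPM were found in the 6 libraries of the high state, 3.63 CPM in green tree 2, and no more than 0.190 CPM elsewhere. Green tree 4 was the highest tree of both transcripts.

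**Figure D3:**
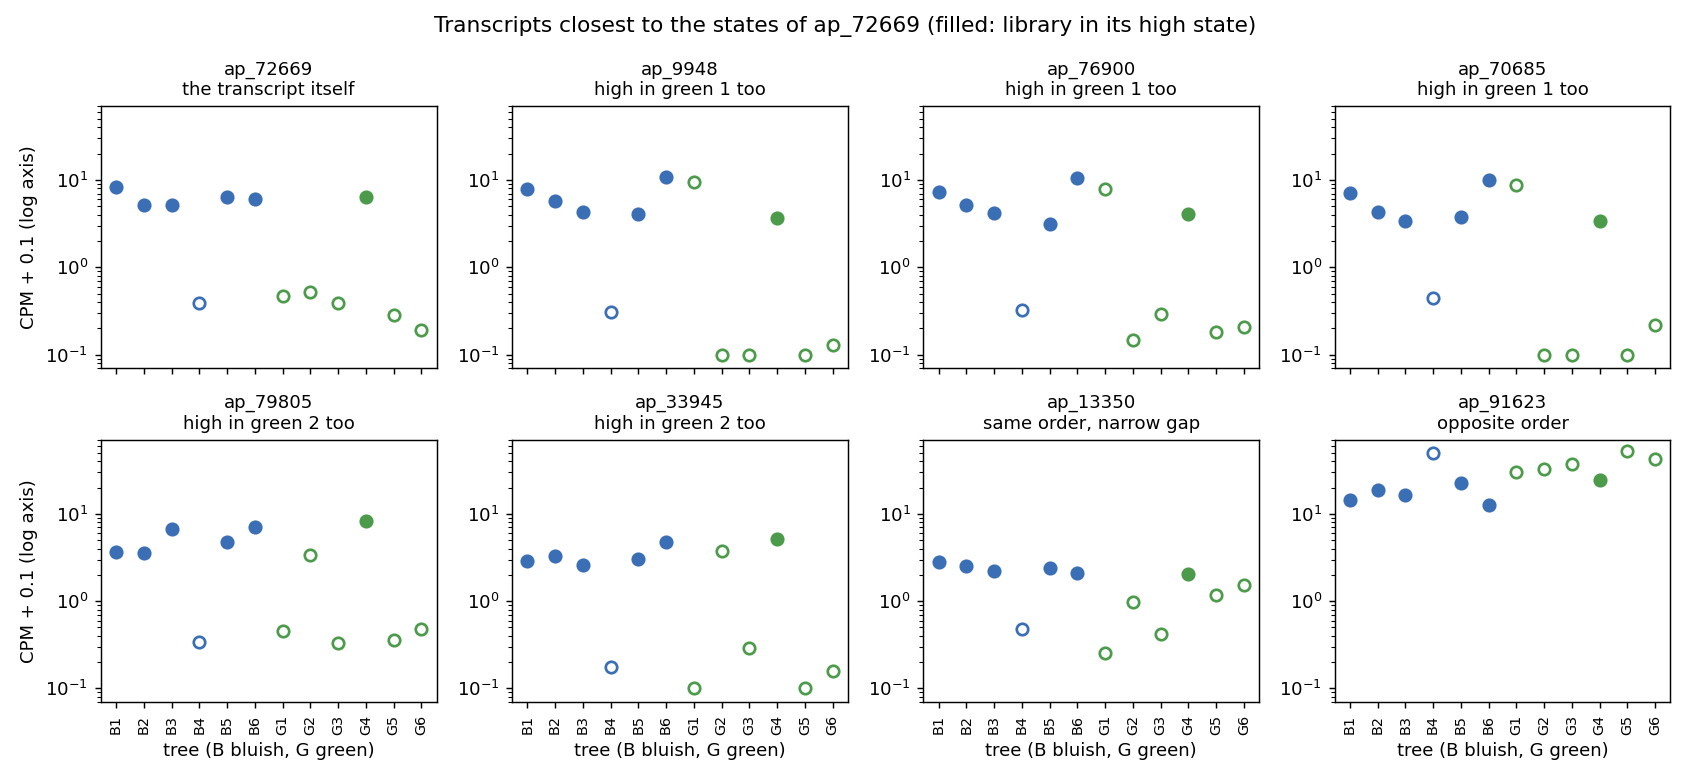
Levels of ap_72669 and of the 7 transcripts closest to its states by tree (CPM + 0.1, log axis), bluish trees in blue and green trees in green, filled where the library is in the high state of ap_72669. In the panels of ap_9948, ap_76900 and ap_70685, green tree 1 is the open symbol among the filled ones, and in those of ap_79805 and ap_33945 it is green tree 2.

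A looser measure was taken for all kept transcripts, the number of the 12 libraries that lay on the side of the transcript's own median given by the state of ap_72669. Of the 23326 other transcripts without ties at the median, 46.2% had 6 such libraries, the number at which neither direction prevails. There were 679 transcripts (2.91%) with 10 and 657 (2.82%) with only 2. The numbers of transcripts on both sides of 6 were thus close to each other.

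Lists of transcripts named by the study were read against these shares. They hold its RT-qPCR panel (6 besides ap_72669), transcripts of chlorophyll turnover and photosystems (16), and transcripts listed with ap_72669 under the GO terms plastid or organonitrogen compound catabolic process (9). One transcript stands in 2 lists, which leaves 30. The study chose most of them on the colour contrast of these trees, or listed them in order of its test, so their colour values are not independent evidence. Neither is their agreement with the states, since the states went with colour in all trees except those with number 4. In 0 of the 30 did the levels of the high libraries and the low libraries separate. Agreement in 10 of the 12 libraries was found for 3 of the 30, in 8 for 7, in 6 for 9, in 4 for 10 and in 2 for 1.

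**Figure D4:**
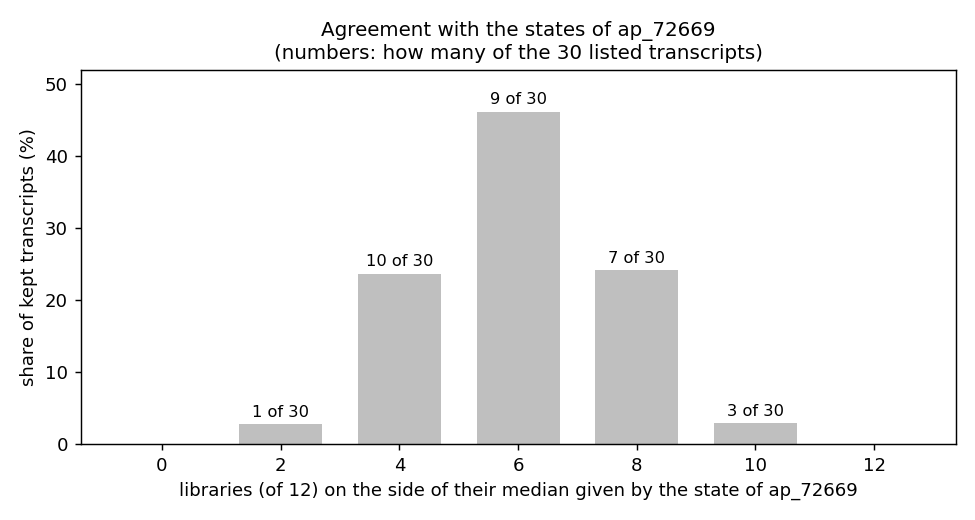
Share of the other kept transcripts (bars, %) by the number of libraries on the side of their median that the state of ap_72669 gives. The numbers above the bars are the listed transcripts, of which 3 of 30 reached 10 libraries and 0 reached 12.

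The 3 transcripts with agreement in 10 libraries were chromomethylase ap_5633, an enzyme that methylates cytosines in DNA, ap_6190 of the plastid term and chitinase ap_21337, of a family that cleaves chitin. Chromomethylase was at 1.51, 7.22, 0.999, 0.450, 0.297 and 4.54 CPM in bluish trees 1 to 6 and at 4.19, 0.272, 0.190, 0.773, 0.395 and 0.362 CPM in green trees 1 to 6. Green tree 1 was high and bluish tree 5 low, against the states of ap_72669. For ap_6190 the levels were 13.5, 19.2, 26.4, 9.09, 23.0 and 17.6 CPM in bluish trees 1 to 6 and 14.3, 7.51, 9.11, 5.17, 1.37 and 2.03 CPM in green trees 1 to 6. Here green tree 1 was high and green tree 4 low, against the states of ap_72669. Thus ap_6190 went with colour in green tree 4, but in bluish tree 4, at 9.09 CPM, it was on the low side like ap_72669. Chitinase ap_21337 had 0.200 to 8.81 CPM in the high libraries and 0.355 to 2.40 CPM in the low libraries. Bluish tree 3, a high library of ap_72669, was its lowest. Bluish tree 4, at 2.40 CPM, was on its high side, also against the states. Green tree 4, at 2.84 CPM, was on the high side like ap_72669.

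Of the chlorophyll and photosystem list, 0 of the 16 transcripts were called between the colours by the quasi-likelihood test of edgeR, and 3 had an unadjusted p under 0.05, as did 1478 of all 23352 kept transcripts (6.33%). These 3 were the green alga hits ap_72505, ap_86407 and ap_16219. DESeq2 and the exact test under tagwise dispersions called the same 3, against 22 (0.0942%) and 25 (0.107%) of all kept transcripts. The likelihood ratio test called ap_72505 and ap_86407, against 15 of all (0.0642%). The exact test under a common dispersion called these 3 and the phytocyanin ap_6809, against 457 of all (1.96%). The chlorophyll a-b binding transcript ap_16219 was lowest in bluish tree 4, at 0.420 CPM, and highest in green tree 4, at 26.6 CPM, but its other levels did not follow the states. The median logFC of the list was −0.59, against 0.00 over all kept transcripts. A negative logFC was found for 12 of the 16, against 11663 of all 23352 kept transcripts. Among the 12 were the 3 green alga hits and the 7 early light-induced protein transcripts of 1 family.

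The Staygreen domain transcript ap_10220, the other listed transcript of chlorophyll breakdown, did not share the states. Bluish trees 1 to 6 had 15.4, 10.6, 15.2, 8.61, 10.3 and 22.2 CPM, and green trees 1 to 6 had 18.2, 16.3, 34.6, 13.4, 23.9 and 13.3 CPM. Its levels were 10.3 to 22.2 CPM in the high libraries and 8.61 to 34.6 CPM in the low libraries, so that the states overlapped over the whole range of the high ones. Its logFC was −0.54 (SE 0.274), with FDR = 0.790 by the quasi-likelihood test of edgeR, and the direction of this value was opposite to that of ap_72669.

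The transcripts for RuBisCO small subunits, which form part of the enzyme that fixes carbon dioxide, differed by the organism of their best hit. With a Picea hit, ap_2598 was at 9.56 to 35.6 CPM in the high libraries and 7.62 to 17.3 CPM in the low libraries. The other, ap_81338, had 7.37 to 24.0 CPM in the high libraries and 5.57 to 14.4 CPM in the low libraries. Bluish tree 2 was the highest tree for both. With a green alga hit, ap_72505 was at 16.4 CPM in green tree 4, the only high library of the green trees, and at 0.292 to 0.892 CPM in the 5 high bluish trees. It lay on the side given by the states in 2 of the 12 libraries.

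The 7 early light-induced protein transcripts, which belong to a family that binds pigments under light stress, lay between 4.51 and 2041 CPM over the libraries. For none of the 7 was the median of the high libraries above the median of the low libraries. Bluish tree 5, a high library of ap_72669, was the lowest tree for 6 of them, and bluish tree 1 for the other. Their logFC was between −0.88 and −0.50, with FDR between 0.800 and 0.877 by the quasi-likelihood test of edgeR. The photosystem transcripts also overlapped between the states. The small PSII transcript ap_13908 was at 11.5 to 99.8 CPM in the high libraries and 14.2 to 188 CPM in the low libraries. The PSI subunit ap_60781 was at 1.99 to 3.65 CPM in the high libraries and 0 to 2.44 CPM in the low libraries.

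**Figure D5:**
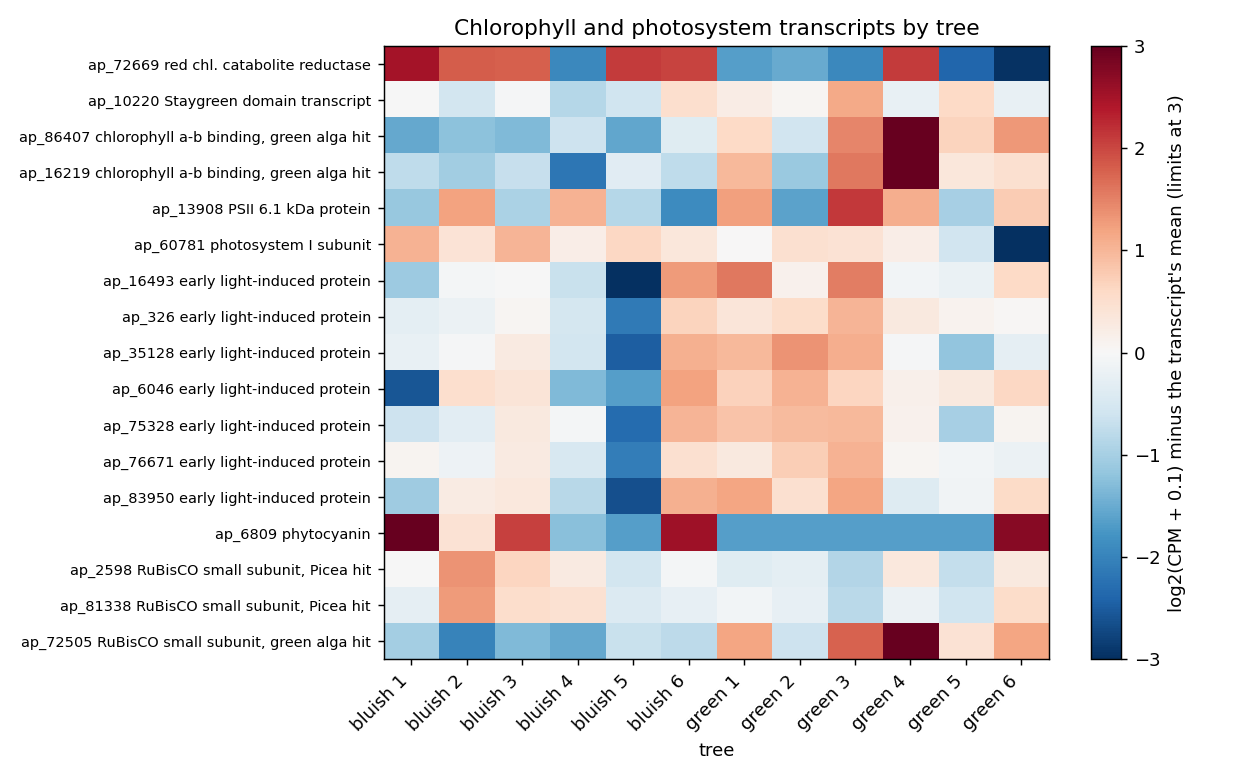
Levels of ap_72669 (top row) and of the 16 transcripts of chlorophyll turnover and photosystems by tree, as log2(CPM + 0.1) minus the mean of each transcript, with colours limited at 3 and −3. The top row is low in bluish tree 4 and high in green tree 4. The green alga hits ap_16219, ap_72505 and ap_86407 are also highest in green tree 4. They are far lower in all bluish trees, with ap_16219 at 1.04 to 1.76 CPM in the 5 high ones. In 0 of the 16 other rows do the 6 high and the 6 low libraries separate.

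In the RT-qPCR panel, the other transcripts named as higher in bluish trees did not share the states either. Transcript ap_1400, with an RNA recognition motif, had 0 to 3.95 CPM in the high libraries and 0 to 2.37 CPM in the low libraries, with no count in green tree 4. Asparagine synthetase ap_14760, which stores nitrogen as asparagine, was at 0.0857 to 3.08 CPM in the high libraries and 0 to 0.609 CPM in the low libraries. Of the 6 panel transcripts, 0 were called between the colours by the quasi-likelihood test of edgeR and 5 had an unadjusted p under 0.05, against 6.33% of all kept transcripts. DESeq2, the likelihood ratio test and the exact test under tagwise dispersions each called 1 of the 6, the green alga hit ap_72505, against 0.0942%, 0.0642% and 0.107% of all kept transcripts. The exact test under a common dispersion called 6, against 1.96% of all.

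Of the 9 transcripts that share a GO term with ap_72669, all had a positive logFC, which follows from their choice among the transcripts the study listed as higher in bluish trees. Called were 0 by the quasi-likelihood test of edgeR, with 4 at an unadjusted p under 0.05 (6.33% of all kept transcripts), 0 by DESeq2 (0.0942% of all) and 9 by the exact test under a common dispersion (1.96% of all). Glutamate decarboxylase ap_22265, which makes the amino acid GABA from glutamate, was at 0.0483 to 4.42 CPM in the high libraries and 0 to 2.43 CPM in the low libraries. Its lowest high library was green tree 4, where ap_72669 was at 6.23 CPM.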

How the data were processed

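RNA-seq libraries from needles of 6 bluish and 6 green trees were used, with colour and tree number taken from the labels. Per the paper's methods, the authors trimmed reads with SeqTrimBB, assembled them with Trinity, dropped contigs under 400 bp, mapped pairs with BWA MEM and counted reads per transcript with sam2counts. The deposited values are these raw counts, without normalization. The extraction text of the labels describes pine roots, and the label needles was used.

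CPM used TMM factors from edgeR 4.0.16 (limma 3.58.1, R 4.3.3) and full library totals. Colours were compared with the quasi-likelihood test of edgeR, Benjamini-Hochberg adjusted over all kept transcripts, tested on simulated data. An SE is |logFC| divided by the square root of F. States were split at the widest gap of log2(CPM + 0.1). DESeq2 1.42.0, other edgeR tests, factors, filters, the tree number as a block and leaving out each library were alternatives. Figures used Python 3.11.15 and matplotlib 3.10.9.

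The transcript, the lists and the rules were chosen with earlier results of these data known. Transcripts named were ap_72669, up to 15 following and up to 10 opposite ones (0 met either rule), and 3 lists. Other names were picked with their values in view. The authors' own fold changes and p-values in supplementary tables were not used.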

Additional observations from a re-analysis of the deposited data

Results flagged for a closer look

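Within the green trees, ap_72669 in tree 4 lay far from the others, at 6.23 CPM, with the next at 0.420 CPM. Within the bluish trees, tree 4 lay far from the others for ap_13350, at 0.375 CPM with the next at 1.99 CPM, and for ap_91623, at 49.7 CPM with the next at 22.4 CPM. Each gap took up more than the share 0.625 of the range of 6 trees that Dixon's test sets, which chance exceeds in about 1 of 20 groups. All 3 transcripts were chosen for levels that separate the states, which both trees with number 4 help to define, so these gaps follow from that choice and are a description.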

How the results depend on the processing

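The split into 6 high and 6 low libraries was the same with 0.5 or 1 CPM added, on the linear scale, and with RLE or no TMM factors. The logFC of ap_72669 was positive in all alternatives. It was 2.02 and called with a common dispersion, and between 1.78 and 4.23 with each library left out. The number of called transcripts was 457 with a common dispersion, 25 with a dispersion for each transcript, 15 by the likelihood ratio test, 22 by DESeq2, 3 with filterByExpr, and 1 to 2 with a library left out. The causes were not tested.

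With the tree number as a replicate block, the logFC of ap_72669 was 3.87 (FDR = 0.809 by edgeR's quasi-likelihood test) and 0 transcripts were called, with 1428 at an unadjusted p under 0.05. The correlation of same-numbered trees, over deviations from the mean of their colour, was between −0.14 and 0.11. Such a value over all kept transcripts cannot show whether same-numbered trees shared a plot or a handling step, which was not tested.

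Transcripts that followed the states numbered 10 for any ratio. By 2-fold they numbered 5 with 1 library off, and 0 to 3 with a library left out, namely 3 without green tree 1 and 2 without green tree 2, since fewer libraries had to separate. Opposite transcripts numbered 13 for any ratio, and by 2-fold 0 with any library left out. Of 635 values of logFC of the listed transcripts under alternatives, 26 passed the thresholds where the reported one had not, and 1 reversed. This was ap_76368, at −1.02 without bluish tree 6 and between −1.02 and 5.89 over the libraries left out. Counts of 6 or fewer per library limit what can be said of the low state in green tree 6.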

Other observations

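Besides ap_72669, 4 kept transcripts had a gap at least as wide that set 6 libraries above 6 others, each with another set of trees. They were picked with their values in view. The first, ap_23494, was high in the 6 bluish trees. For ap_90441, bluish trees 1 and 6 and green trees 1, 3, 4 and 6 were high, at 6.27 to 16.3 CPM, and the others were at 0.240 CPM or less. The LRR receptor-like kinase ap_57871, of a family of membrane proteins that sense outside signals, was at 4.41 to 15.7 CPM in bluish trees 1 to 4 and green trees 4 and 6, and at 0.124 CPM or less in the others. For ap_30356, bluish trees 3, 4 and 5 and green trees 1, 2 and 6 were high, at 6.49 to 20.2 CPM, and the others were at 0.507 CPM or less.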
